A study of Mus musculus with 4 samples.

Results

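The introns of the most intron-rich genes were taken as 1 set, namely every intron whose gene had 50 or more numbered introns in the deposited intron counts and which held at least 10 counts summed over the 4 samples. Of 207562 deposited introns in 24963 genes, 11709 lay in 168 genes of this size, and 6790 introns of 158 genes reached 10 counts. A further 1689 introns of these genes had no count in any sample. The members were thus chosen by their own counts, whose levels are given as a description, and 130 members held exactly 10 counts while 150 introns of these genes stopped at 9. On the other side of the limit on gene size, 7 genes had exactly 50 introns and 13 had 49, and the median intron counts per gene count was 0.866 and 0.571 over the 4 and 8 of them with at least 100 gene counts in every sample.

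The cells were mostly diplotene spermatocytes, male germ cells late in the first meiotic prophase, from testes of mice at 20 days post partum (dpp). The study also counted secondary spermatocytes and round spermatids in such preparations. Samples of Tdrd6+/- and Tdrd6-/- mice were compared, with 2 of each genotype and at least 4 mice pooled per sample. All cells were collected with magnetic beads through human CD4, which both groups expressed from the endogenous Tdrd6 promoter, and the control was therefore heterozygous and not wild-type. The purpose of the sequencing was to find out whether splicing differs without TDRD6, a germ cell protein with Tudor domains that bind methylated arginine, and total RNA depleted of rRNA was sequenced from the separate cell pools.

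An intron is transcribed together with its gene and is removed by the spliceosome, usually while RNA polymerase II is still moving along the template. Intronic fragments in total RNA therefore come from RNA still being made or not yet spliced, from introns left in finished RNA, and from other transcripts that start inside an intron. Genes of this size encode the heavy chains of dynein motors, fibrous collagens, giant scaffold proteins and very large enzymes, and germ cells that will build a sperm flagellum are known to express several of the dynein genes strongly.

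Introns could be placed on GRCm38 (mm10) in genes whose number of deposited introns matched the annotation, which was the case for 90 of the 168 genes and for 3224 of the 6790 members. For 4 of the placed introns that the results below turn on, the exon bases on either side are given from the GENCODE M21 transcripts, 5′ to 3′ on the strand of the gene, with the upstream exon in lower case and the downstream exon in capitals. In each of these 4 junctions both exon stretches are coding. The first shows the intron at which the counts of Col16a1 began, on the plus strand at chr4:130060985-130061344. The second is the placed intron whose share differed between the genotypes, in Mycbp2 on the minus strand at chr14:103276519-103282597. The last pair are introns that held over 30% of the counts of their gene, in Csmd1 on the minus strand at chr8:16710703-17027224 and in Col4a3 on the plus strand at chr1:82587432-82641438.
Col16a1 intron 23: gctccagcctggGAGGGCCTAGGA
Mycbp2 intron 15: agttcctggaggGATCTGTGGTTG
Csmd1 intron 5: ccatgtacgaagTTTTACCTAGTC
Col4a3 intron 1: gtggctagcaagGGCTGTGTCTGC

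Each sample had 43778449 to 47221554 tallied fragments, of which 9603669 to 13937818 were intron counts, and the members held 522254, 461604, 464988 and 330974 of them, always in the order Tdrd6+/- replicate 1, Tdrd6+/- replicate 2, Tdrd6-/- replicate 1 and Tdrd6-/- replicate 2. Over all genes the intron counts per gene count were 0.527, 0.419, 0.425 and 0.306, so that Tdrd6-/- replicate 2 stood lowest. Tdrd6 itself was at 1256 and 1344 CPM (gene counts scaled to the same total in every sample) in Tdrd6+/- and at 11.8 and 12.7 CPM in Tdrd6-/-. All 10 spermatocyte markers were measured, with summed levels of 9653 to 9879 CPM in Tdrd6+/- and 9254 to 10282 CPM in Tdrd6-/-. Tdrd6 is itself among them. The other 9 summed to 8397 and 8534 CPM in Tdrd6+/- and to 9242 and 10269 CPM in Tdrd6-/-, which did not overlap. These 9 did not all move alike. Ldhc was at 3575 and 3686 CPM in Tdrd6+/- and at 4132 and 5006 CPM in Tdrd6-/-. Piwil1 went the other way, from 1094 and 884 CPM to 759 and 780 CPM. The markers of spermatogonia and early meiosis (6 of 6) summed to 17.6 and 18.2 CPM in Tdrd6+/- and to 22.3 and 22.6 CPM in Tdrd6-/-. The summed levels of the spermatid markers (6 of 6 measured) were 4.20 and 6.19 CPM in Tdrd6+/- and 11.1 and 9.40 CPM in Tdrd6-/-, mostly from Acrv1, while Prm1 was at 0 in all samples but Tdrd6-/- replicate 2. Sertoli cell markers (6 of 6) summed to 41.8 and 36.1 CPM in Tdrd6+/- and to 50.3 and 42.4 CPM in Tdrd6-/-. Among these 6, Sox9 went the other way, from 2.87 and 1.78 CPM to 1.21 and 1.62 CPM. Leydig cell (4 of 5) and peritubular, endothelial and blood cell markers (7 of 7) summed to 6.77 to 9.41 and 6.56 to 8.17 CPM over all samples. The part of any of these cells in the results below was not tested. In such bulk samples, fewer cells of a type and less RNA per cell cannot be told apart.

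A member intron held a median of 96.5 counts over the 4 samples, with a range of 10 to 18285. A count was present in every sample for 6579 of the 6790 members, 3351 had at least 100 counts and 303 at least 1000. The 100 introns with the most counts together held 25.4% of all member counts. The intron with the most counts was the first of Dnah8, with 4796, 4712, 4932 and 3845 counts.

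Among genes, Dnah8, the heavy chain of an axonemal outer dynein arm found in sperm, stood far above the rest and held 17.5% of the intron counts of the 168 genes. Its 92 introns, all of them members, had 87263 and 88410 counts in Tdrd6+/- and 76224 and 60760 in Tdrd6-/-. High counts were also found in Dnah7a and Dnah7b, a pair of nearly identical inner-arm dynein genes on chromosome 1 between which fragments can be split, with 54857 and 50847 counts over the 4 samples. Vps13a, a lipid transfer protein gene, had 16476, 11191, 11655 and 9063 counts.

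Below these stood Mycbp2, a ubiquitin ligase gene, with 44774 counts over the 4 samples. Nbas, a membrane traffic gene, had 44157, and Dync2h1, the dynein heavy chain of intraflagellar transport, had 40863. Ep400, a chromatin remodeller, had 37863 counts, and Nbea, Dnah17 and Nf1, which encodes a regulator of Ras, had 32064, 32046 and 30825. Together these 11 genes held 40.7% of the intron counts of the 168. In all 11 the raw count was lowest in Tdrd6-/- replicate 2 and in 9 it was highest in Tdrd6+/- replicate 1, the samples with the fewest and the most intron counts over all genes.

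**Figure D1:**
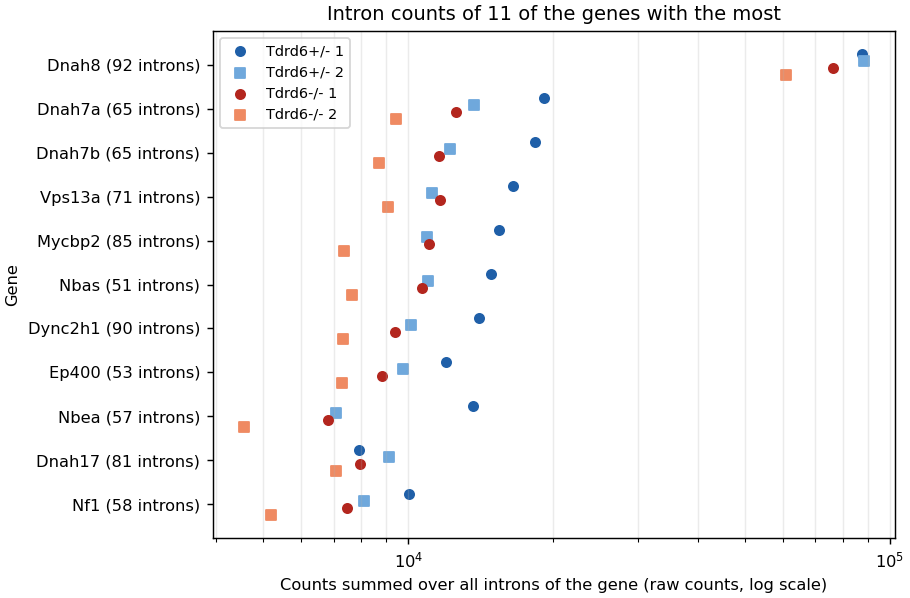
Raw counts summed over all introns of each gene (x axis, log scale) for 11 of the genes with the most, with 1 point per sample, blue for Tdrd6+/- and red for Tdrd6-/-. Dnah8 stands apart at 60760 to 88410 counts, and Tdrd6-/- replicate 2 has the lowest point in each of the 11 genes.

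The intron counts were next set against the gene count, which is the deposited count per gene. It cannot include the intronic fragments, since the intron counts exceeded it in some genes. Summed over the 155 genes with a gene count of their own, the intron counts per gene count were 0.336 and 0.270 in Tdrd6+/- and 0.321 and 0.274 in Tdrd6-/-. The 4 values overlapped between the genotypes, with means of 0.303 ± 0.046 and 0.298 ± 0.033 (SD, n = 2 each) and p = 1 in an exact two-sided permutation test, which cannot go below 0.33 with 2 samples against 2. Over all other genes with introns the ratios were 0.570 and 0.452 in Tdrd6+/- and 0.454 and 0.323 in Tdrd6-/-. Divided by these, the ratios of the large genes averaged 0.593 in Tdrd6+/- and 0.778 in Tdrd6-/-, a difference in the other direction, with p = 0.33 by the same exact test.

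The sum was carried by Dnah8, and the median gene gave higher ratios. Over the 113 genes with at least 100 gene counts in every sample, the median was 0.701 and 0.620 in Tdrd6+/- and 0.654 and 0.529 in Tdrd6-/-. The medians of genes with 1 intron averaged 0.0888 in Tdrd6+/-, those with 2 to 9 introns 0.333, with 10 to 19 introns 0.559 and with 20 to 49 introns 0.690, against 0.661 with 50 or more. Per kilobase the order turned round. The intron counts per kb of intron were a median of 15.3% of the gene counts per kb of exon in placed genes with 1 intron, 10.4% with 2 to 9, 9.54% with 10 to 19, 8.17% with 20 to 49 and 6.30% with 50 or more (55 genes, with a median of 132 kb of intron), all as means over the Tdrd6+/- samples, and the Tdrd6-/- samples gave 13.5% and 5.69% for the first and last class.

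The 113 genes with at least 100 gene counts in every sample spanned a wide range in this ratio. Lowest of them was Ttn, the giant spring protein of muscle, with 344 introns of which 13 were members, at 0.0962, 0.0766, 0.110 and 0.119 intron counts per gene count. Dync1h1, the heavy chain of cytoplasmic dynein, followed at a mean of 0.108 over the 4 samples, Dnah8 at 0.145, Myo15b at 0.147 and Dnah17 at 0.151. Highest of the 113 was Dock1, an activator of the small GTPase Rac, at 8.31, 8.50, 8.83 and 6.18. Dmd, the dystrophin gene, was at 7.75, 8.12, 7.19 and 4.96. Kalrn followed at a mean of 4.63 over the 4 samples, and Itpr2 and Itpr1, genes of inositol trisphosphate receptors, at 4.19 and 3.595. In all 5 genes at the high end Tdrd6-/- replicate 2 had the lowest ratio, as it had over all genes.

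Along the genes, the intron counts were spread in a similar way in all 4 samples. In the 59 placed genes with at least 100 intron counts in every sample, the introns were numbered from the 5′ end and divided into 5 equal classes by order. The first class held a mean of 29.7% and 29.7% of the counts of a gene in Tdrd6+/- and 29.1% and 28.5% in Tdrd6-/-. The difference of -0.92 percentage points separated the groups, yet p was 0.33, the smallest value this exact two-sided permutation test can give. The second class held 15.9% in Tdrd6+/- and 16.8% in Tdrd6-/-, and each of the remaining classes held 17.6% to 18.8% as a genotype mean.

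The first class also held 39.4% of the intron length of these genes. Per kilobase it therefore took the smallest part, with 14.0% in Tdrd6+/- and 13.5% in Tdrd6-/-, and the last class took the largest, with 24.6% and 25.3%. The share rose at every step in Tdrd6+/-, while in Tdrd6-/- it was 19.41% in the second class and 18.97% in the third. With all 120 genes that had 100 intron counts in every sample, ordered by the deposited numbering and the annotated strand, the first class held 29.6% and 29.1%. Summed over the 59 genes in place of averaged, it held 24.9% and 25.1% in Tdrd6+/- and 26.3% and 24.2% in Tdrd6-/-, so the direction of the difference between genotypes turned with the weighting.

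**Figure D2:**
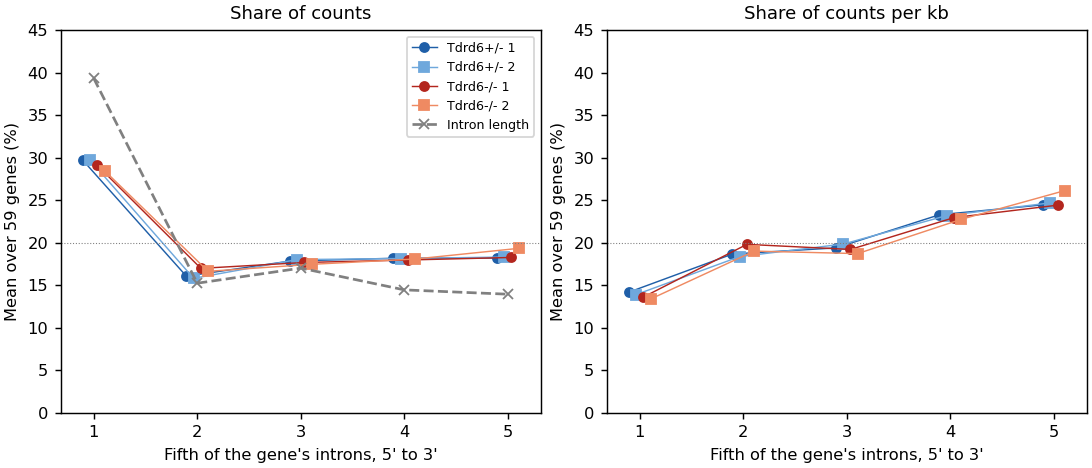
Mean percent of the intron counts of a gene (left) and of its counts per kb of intron (right) in 5 classes of introns from the 5′ to the 3′ end, over 59 genes, with 1 line per sample and the share of intron length as a dashed grey line. The counts are highest in the first class, at 28.5% to 29.7%, and the counts per kb rise from 13.4% to 14.2% in the first class to 24.4% to 26.1% in the last.

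Among the members, short introns were the densest, an order that the choice of members favours. The limit of 10 counts per intron sets a higher floor on counts per kb the shorter the intron is. Introns with fewer counts are left out. Among 3061 placed members of these 59 genes, the 632 introns under 0.5 kb held 13.2% of the counts in 1.23% of the length, with 117, 122, 115 and 98.3 counts per kb. The 114 introns of 20 kb or more held 51.6% of the length and 9.97% of the counts, with 2.27, 2.15, 2.45 and 1.29 counts per kb. Introns of 10 to 20 kb held 8.88% and 8.05% of the counts in Tdrd6+/- and 7.95% and 6.74% in Tdrd6-/-, while those under 0.5 kb held 11.96% and 13.8% against 12.5% and 15.1%. A fragment that crosses into an exon weighs more in a short intron, and whether such fragments were counted is not given in the sources used here.

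Individual genes departed widely from the mean course. Of 35 placed genes with at least 500 intron counts in every sample, the median held 26.5% of its counts in the first class. The highest shares were in Cdh23, a cadherin, at 52.4%, 48.3%, 50.9% and 49.6%, in Hectd4, a ubiquitin ligase gene, at 43.8% over the 4 samples, in Macf1, a linker of actin and microtubules, at 39.8%, and in Kmt2c, a histone methyltransferase gene, at 38.8%. Low shares were found in Col16a1 at 0.190%, in Tg, the thyroglobulin gene, at 7.31% and in Lrrk2 at 11.9%. Tg held 53.0% of its counts in the last class.

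In Col16a1 the counts did not taper but began at a single intron. Col16a1, a collagen that links other collagen fibres, had 14, 6, 18 and 8 counts on its first 22 introns. Intron 22 had 1, 1, 0 and 0 counts and intron 23, only 360 bp long, had 127, 155, 192 and 203. The introns from 23 to 71 held 3535, 3198, 3920 and 4031 counts. Stab2, a scavenger receptor of endothelium, also began late, at a lower level and less evenly. Its first 33 introns had 5, 5, 3 and 3 counts and intron 34 had 21, 28, 17 and 27. Introns 35 and 36 had at most 2 counts in a sample and intron 37 had 16, 15, 15 and 6, and introns 34 to 71 held 294, 248, 286 and 188.

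Both genes were among 6 of the 120 genes with under 2% of their intron counts in the first class, a limit chosen after the values were seen. Also among them were Ryr3, Fbn2 and Adgrv1, at 1.43%, 1.74% and 1.74%, whose introns could not be placed and whose order rests on the deposited numbering and the strand. The late beginning was present in both genotypes in every sample of Col16a1 and Stab2. GENCODE M21 lists 13 and 7 transcripts for these genes, and 0 of them start in the intron at which the counts began, in the intron before it or in the exon between. An annotated Stab2 transcript ends at position 86918662 of chromosome 10, at the edge of the exon just upstream of intron 34. No listed transcript is spliced at both edges of this intron, which is a gap between merged exons, and its exon bases are therefore not given.

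**Figure D3:**
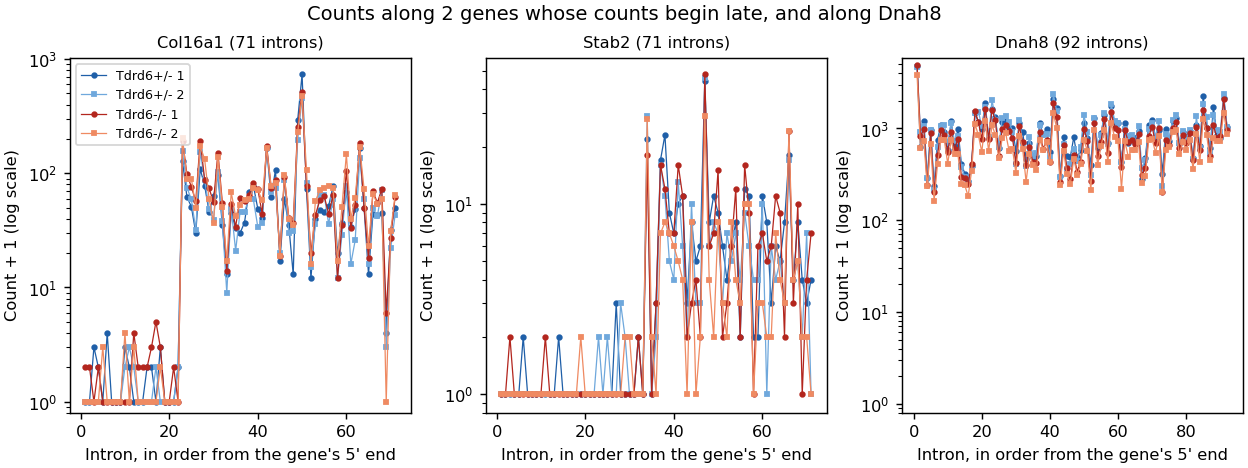
Count + 1 (log scale) of each intron against its order from the 5′ end in Col16a1, Stab2 and, for comparison, Dnah8, with 1 line per sample. Counts lie near 0 up to intron 22 and 33 in the first 2 genes and are mostly higher from the next intron on in all 4 samples, while Dnah8 has counts on all 92 introns.

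In other genes a single intron held much of the total. Over the 120 genes, the intron with the most counts held a median of 13.5% of the intron counts of its gene, over 25% in 21 genes and over 50% in 2. It was the first intron in 36 genes and the last in 2. The largest shares were in Lrp1b, a lipoprotein receptor gene, whose intron 3 of 91 held 77.3%, 86.7%, 81.4% and 89.3%, and in Dock4, whose first intron of 52 held 65.9%, 59.5%, 63.2% and 68.3%. In Lrp1b the introns on either side had 2 to 9 counts per sample against 163, 189, 206 and 267 on intron 3.

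Next came intron 4 of Trrap, at 45.6% over the 4 samples, and the first intron of Dock9, at 39.7%. Intron 4 of Itpr1 held 33.4%, 33.9%, 33.8% and 34.8%, a narrow range given that its raw counts ran from 781 to 1700. Intron 5 of Csmd1, which spans 316522 bp, held 32.9% over the 4 samples, intron 27 of Dock1 32.6% and the first intron of Col4a3, a basement membrane collagen chain gene, 32.5%. Other annotated genes lie inside several of these genes or introns, on the same strand in Lrp1b (3), Itpr1 (2), Trrap, Csmd1, Dock1 and Col4a3 (1 each), and the share of the counts that belongs to them was not tested. Apart from Trrap, none of the 8 introns passed the test of the genotypes described next, and Csmd1 fell under its filter on low counts.

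To ask whether single introns were used differently without TDRD6, each intron was compared with the other introns of its gene by a DEXSeq model fitted with DESeq2, over all genes. At a false discovery rate of 0.1, 8 of 1082 member introns tested differed (0.739%), 2 higher and 6 lower in Tdrd6-/-, against 561 of 28903 introns of all genes (1.94%). The other 5708 members fell under the filter on low mean counts. The number of calls rested on single samples, with 1 and 5 calls when the first or the second Tdrd6+/- sample was left out and 15 and 2 calls when the first or the second Tdrd6-/- sample was. The calls over the introns of all genes moved in the same directions when these samples were left out. edgeR gave 0 calls among 6784 members, with 191 at an unadjusted p under 0.05, and 2 among 127248 introns of all genes. Against the gene count in place of the other introns, 31 of 1141 members tested differed, 25 of them higher. Over all genes 1269 of 29505 introns did (4.30%).

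The call with the smallest p was in Wdfy3, which encodes an adaptor of selective autophagy. Its last intron, 69 of 69, had 1638 and 1350 counts in Tdrd6+/- and 863 and 561 in Tdrd6-/-, which was 35.9% and 31.7% of the intron counts of the gene against 21.2% and 19.6%. The log2 change relative to the other introns was -0.99 (SE 0.165, adjusted p = 1.45e-05 in DESeq2). The other introns of Wdfy3 together had 2931, 2909, 3206 and 2302 counts and intron 68, its neighbour, had 70, 64, 80 and 63. The gene count of Wdfy3 was not called, at a log2 change of -0.05 (adjusted p = 0.918 in edgeR). The introns of Wdfy3 were not placed, so intron 69 is the last by the deposited numbering and the strand. Other annotated genes overlap the span of Wdfy3, 3 in all and 1 of them on its strand. Their part in the counts was not tested.

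Intron 4 of Trrap moved the other way. Trrap encodes a large scaffold, related to the PI3-kinase-like kinases, of histone acetyltransferase complexes. The intron had 2544 and 2036 counts in Tdrd6+/- and 4823 and 4183 in Tdrd6-/-, or 37.9% and 33.9% against 49.6% and 56.7% of the gene. The log2 change was 1.02 (SE 0.174, adjusted p = 3.11e-05 in DESeq2). Introns 3 and 5 beside it had 107 to 164 and 199 to 356 counts per sample, and the ranges of the genotypes overlapped in both.

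The other 6 calls were smaller. Introns 8 of Dnah7a, 20 and 6 of Dnah7b, 1 of Vps13a and 15 of Mycbp2 were lower in Tdrd6-/-, with log2 changes of -0.86, -0.63, -0.77, -0.61 and -0.74 and adjusted p of 0.00836, 0.0282, 0.0634, 0.0326 and 0.0464 in DESeq2. The first intron of Dnah7b was higher, at 1.69% and 2.17% of the gene in Tdrd6+/- and 2.49% and 3.89% in Tdrd6-/- (log2 change 0.72, adjusted p = 0.0966). In Mycbp2 intron 15, whose flanking exon bases are given above, the counts were 292, 234, 133 and 90, or 1.89% and 2.14% against 1.20% and 1.22%. The first intron of Vps13a held 4.95% in both Tdrd6+/- samples and 3.48% and 3.11% in Tdrd6-/-. Because Dnah7a and Dnah7b are near-identical, their 4 calls are uncertain as to the gene. Other annotated genes overlap the span of Dnah7a (1, on the same strand) and of Vps13a (2, on the opposite strand), and their part in the counts was not tested. None overlapped Dnah7b or intron 15 of Mycbp2.

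**Figure D4:**
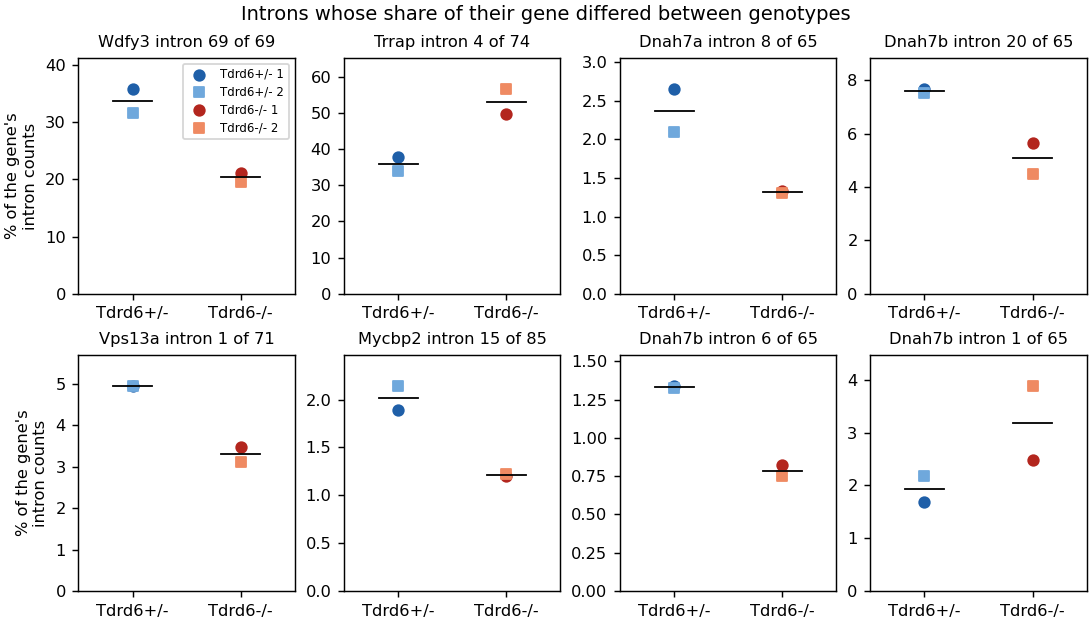
Percent of the intron counts of the gene on each of the 8 introns that passed the usage test, with 1 point per sample and a line at each genotype mean. The samples of the genotypes do not overlap in any panel, 6 introns are lower and 2 (Trrap intron 4 and Dnah7b intron 1) higher in Tdrd6-/-, and the y axes start at 0 and differ between panels.

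A change of all introns of a gene alike would not appear in that comparison, so the summed intron counts were also tested against the gene count, each scaled by its own size factors. Of 86 member genes tested, 2 were higher in Tdrd6-/- and 0 lower (2.33%) in DESeq2, against 200 of 4883 genes in all (4.1%), 60 higher (1.23%) and 140 lower (2.87%). At an unadjusted p under 0.05, 10 member genes were higher and 2 lower, against 183 and 492 of the 4883, and edgeR called 4 of 154 higher and 0 lower, against 303 of 15190 genes in either direction (1.99%). The median log2 change of the ratio was 0.17 over the 86 genes and -0.02 over all genes tested. With 1 size factor for both kinds of counts, 0 of 48 member genes were called in DESeq2 (6 of all members fitted at an unadjusted p under 0.05), and these medians were -0.10 and -0.38. In DESeq2 0 genes were called without Tdrd6+/- replicate 1 or without Tdrd6-/- replicate 2 (4 each at an unadjusted p under 0.05), and 1 without Tdrd6+/- replicate 2.

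Both called genes had lower gene counts. Trrap had 0.738 and 0.683 intron counts per gene count in Tdrd6+/- and 1.20 and 1.11 in Tdrd6-/- (log2 change 0.98, SE 0.179, adjusted p = 4.08e-05 in DESeq2). Intron 4 alone made up 0.280, 0.231, 0.596 and 0.631 of these and the other introns 0.458, 0.452, 0.605 and 0.482, and without the top intron of each gene the change of Trrap was 0.51 (adjusted p = 0.0578). Hectd4 had 0.291 and 0.245 against 0.345 and 0.346 (log2 change 0.65, SE 0.196, adjusted p = 0.0469). Its intron counts were 5183, 5481, 4724 and 3513 and its gene counts 17796, 22339, 13681 and 10140, so that both fell and the gene count by more. The Hectd4 call, with an adjusted p close to the limit, was lost under several alternatives, among them the fit with the replicate number. Trrap was not called with 1 size factor either (log2 change 0.70, adjusted p = 0.101 in DESeq2). Its log2 change ran from 0.82 to 1.11 when single samples were left out.

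The gene counts themselves differed most often. Of 150 genes with 50 or more introns that could be tested, 36 were lower in Tdrd6-/- (24%) and 0 higher, against 794 (4.8%) among 16555 genes, 625 lower (3.78%) and 169 higher (1.02%), by edgeR's quasi-likelihood test at a false discovery rate of 0.1. At an unadjusted p under 0.05, 54 were lower and 4 higher, and DESeq2 called 35 lower and 1 higher. The log2 changes of the 36 ran from -1.26 to -0.43 with a median of -0.58, and over all 150 the median was -0.19 against 0.01 over all genes tested, with 104 below 0. Without Tdrd6-/- replicate 2, 8 were lower and 1 higher, and leaving out any other sample gave 29 to 42 calls. With no filter on low counts the same test made 1 call. The summed markers of spermatids, of spermatogonia and early meiosis, of Sertoli cells and, without Tdrd6, of spermatocytes were higher in Tdrd6-/-, as given above. Single markers such as Piwil1 went the other way.

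Genes with 50 or more introns also have long exons in sum, and the share called rose with exon length. Of all genes tested, 1.33% were called lower where the annotated exons summed to under 2 kb, 1.91% at 2 to 4 kb, 3.84% at 4 to 8 kb, 7.55% at 8 to 12 kb and 16.1% at 12 kb or more. In the longest class, 32 of 102 genes with 50 or more introns were lower (31.4%) and 90 of 656 with fewer introns (13.7%). At 8 to 12 kb the counts were 4 of 37 (10.8%) and 119 of 1593 (7.47%), and at 4 to 8 kb 0 of 11 and 193 of 5014 (3.85%). The part of exon length, RNA quality or library preparation in these calls was not tested.

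The 6 calls with the smallest adjusted p were Cplane1, Hectd4, 4932438A13Rik, Dnah2, Hydin and Usp34. Cplane1, a gene of ciliogenesis, had gene counts of 11045 and 10863 in Tdrd6+/- and 7182 and 5683 in Tdrd6-/- (log2 change -1.004, SE 0.14, adjusted p = 0.000145 in edgeR). 4932438A13Rik, a lipid transfer protein gene, had 40479, 35659, 26528 and 21177 counts (log2 change -0.91), and Dnah2, an axonemal dynein heavy chain, 22689, 27935, 17921 and 14282 (log2 change -0.88). Hydin, a protein of the central pair of the axoneme, and Usp34, a ubiquitin protease, were lower by -0.83 and -0.84 on the log2 scale. In each of the 6 both Tdrd6-/- samples lay below both Tdrd6+/- samples, and Tdrd6-/- replicate 2 was the lowest.

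The introns of the genes with lower gene counts had fewer counts as well, and how their change compared with that of the gene count depended on the scaling. Scaled by size factors of their own, the summed intron counts of the 36 genes had a median log2 change of -0.36, above the -0.58 of the gene counts, and scaled by the size factors of the gene counts they had a median of -0.66, below it. With either scaling the change was below 0 in 35 of the 36. With the size factors of the gene counts, the median of the genes not called was below 0 too, as given below. The exception was Trrap, at 0.51 for its introns (0.20 with the size factors of the gene counts) and -0.52 for its gene count (adjusted p = 0.0369 in edgeR). The raw intron counts per gene count were on average higher in Tdrd6-/- in 17 of the 36 genes and lower in 19. In Dnah8, with a gene count lower by -0.63 on the log2 scale, the introns changed by -0.28 or -0.58 under these scalings, and the raw ratio was 0.150 and 0.137 in Tdrd6+/- and 0.148 and 0.146 in Tdrd6-/-. The introns of the 114 genes that were not called had a median of 0.15, or of -0.14 with the size factors of the gene counts, against -0.09 for the gene counts.

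**Figure D5:**
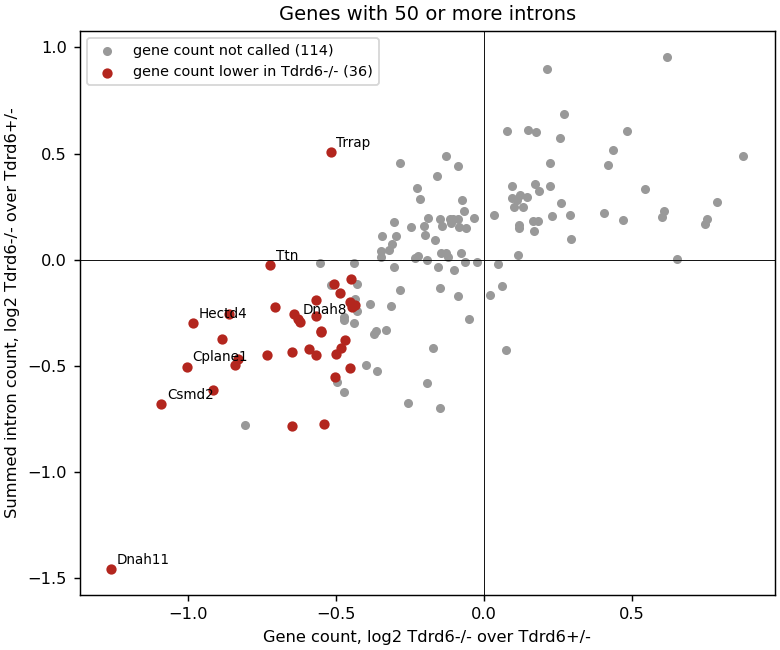
Log2 change of the summed intron count (y axis) against that of the gene count (x axis), Tdrd6-/- over Tdrd6+/-, for the 150 genes with 50 or more introns tested, each kind of count scaled by its own size factors, with the 36 called lower in red. Of these 36, 35 lie below 0 on both axes, and Trrap lies above 0 for its introns.

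By gene group, the dynein heavy chains held the most genes with lower gene counts by number, but not by share. The ubiquitin ligases and proteases had 7 of 9, against 8 of 15 dynein heavy chains. Over the whole set 36 of 150 were lower (24%), and over all genes 625 of 16555 (3.78%). Of 15 dynein heavy chain genes in the set, 8 were lower and 0 higher, with a median log2 change of -0.45 over the 15. They were the axonemal Dnah1, Dnah2, Dnah7b, Dnah8, Dnah11 and Dnah17 and the transport motors Dync1h1 and Dync2h1. Dnah11 had the largest change, from 502 and 219 counts to 174 and 185 (log2 change -1.26, adjusted p = 0.0163 in edgeR), but this rested on Tdrd6+/- replicate 1, without which it was -0.47 (adjusted p = 0.548 in edgeR), and DESeq2 did not call it. Dnah7a, Dnah12, Dnah6 and Dnah10 had log2 changes of -0.40, -0.37, -0.38 and -0.35 that did not pass. Dnah3 had 342 and 499 gene counts in Tdrd6+/- and 644 and 425 in Tdrd6-/-, a log2 change of 0.12 that did not pass. Dnah5 and Dnah9 had at most 34 and 88 gene counts in a sample. The introns of the 15 genes summed to 182926, 171512, 150560 and 120136 counts, and 4 of 362 introns tested were called for usage, all in Dnah7a and Dnah7b.

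Among the ubiquitin ligases and proteases 7 of 9 tested were lower, among them Mycbp2, Usp34, Hectd4, Herc1, Usp24 and Birc6, with a median of -0.55 over the 9. Herc2 at -0.23 and Rnf213 at 0.12 did not pass. Of 5 PI3-kinase-like kinases and relatives, Trrap, Mtor and Smg1, the kinase of nonsense-mediated decay, were lower, by -0.52, -0.51 and -0.62, while Prkdc at -0.47 and Atm at -0.10 did not pass. Cfap54 and Hydin were the 2 lower genes of 3 other axoneme and centrosome genes, and Cep290 had a log2 change of 0.41 that did not pass.

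The lipid transfer and membrane traffic genes had 5 lower of 21 tested (Nbea, 4932438A13Rik, Vps13b, Htt and Wdfy4), and 2 of their 166 introns tested were called for usage, in Wdfy3 and Vps13a. The giant cytoskeletal and muscle genes had 1 of 18, Ttn, and the adhesion, receptor and channel genes 2 of 23, among them Hmcn2. Of the chromatin and transcription genes Kmt2d was lower and Kmt2c, at -0.44, did not pass. None of the listed RNA processing genes had 50 introns.

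Of 16 collagen genes tested 0 were called in either direction in edgeR, with 1 higher and 0 lower at an unadjusted p under 0.05, and their median log2 change was 0.16. They had 1117 introns in 18 genes, but only 306 were members, and their summed intron counts were 5951, 5898, 7298 and 6399. Col16a1 held 14730 of these counts over the 4 samples and Col22a1 2043. In Col22a1 the intron counts per gene count were 3.71 and 3.33 in Tdrd6+/- and 2.01 and 1.78 in Tdrd6-/-, a log2 change of -0.62 that did not pass (adjusted p = 0.138 in DESeq2). In Col1a1, a main collagen of connective tissue, they were 0.177 on average.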

How the data were processed

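RNA was measured in 2 Tdrd6+/- and 2 Tdrd6-/- samples, grouped by their labels. Paired-end fragments were aligned with GSNAP to mm10 (GRCm38) by the authors, who used Ensembl release 75 as annotation and deposited raw counts per numbered intron (5 closing tallies were left out) and per gene, exon and junction. The submitters' notes name bcl2fastq 1.8.4. The counting program and its strand setting are not given in the sources used here, so overlapping and antisense genes are uncertain. The 13 genes merged with a neighbour have no gene count of their own.

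The files hold no coordinates, and introns were placed with GENCODE M21 where the number of annotated gaps matched. The numbering follows the chromosome: length and count of an intron, on log scales, correlated with a median r of 0.69 in this order and of -0.04 in the reverse in 30 genes of the minus strand.

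Intron usage followed the study's DEXSeq model (sample, feature and feature by genotype), fitted with DESeq2 1.42.0 in R 4.3.3 on all introns with at least 10 counts. Tested members had a mean of at least 85.6 counts after independent filtering. The same likelihood ratio test compared summed introns with gene counts, and edgeR 4.0.16 tested the gene counts (quasi-likelihood, TMM, filterByExpr). Adjusted p are Benjamini-Hochberg over all features, at a false discovery rate of 0.1. The scripts were tested on simulated data. Samples were separate pools, and p-values measure only the spread between these 4. Depth was 43778449 to 47221554 tallied fragments per sample.

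Members, gene lists and tests were chosen with earlier results of these data known. Named were the 12 genes with the most intron counts, the called introns, the 8 introns with the highest share of their gene, the 5 genes at each end of intron counts per gene count, the 4 at each end of the first-class share, at most 6 genes called per test and direction, and Ttn, Trrap and Usp34, of which some genes are not reported here. Other members of the lists, and the genes whose counts begin late, were named after their values were seen. Alternatives were another tool, scaling, filter, reference or weighting, the replicate block and leaving out each sample. Sequences are from GENCODE M21 transcripts (GRCm38), with 12 bases on each side.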

Additional observations from a re-analysis of the deposited data

How the results depend on the processing

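The 8 member introns with changed usage became 0 with edgeR, 31 against the gene count and 20 in genes with 40 or more introns, and 1 to 15 when samples were left out in turn. The 2 genes with changed intron counts per gene count became 4 with edgeR, 0 with 1 size factor, 4 with no filter and 0 to 2 without single samples. The 36 genes with changed gene counts became 1 with no filter and 9 to 42 without single samples, and were 36 with DESeq2, of which 34 were shared. The difference in summed intron counts per gene count reversed from -0.0053 to 0.185 when divided by the ratio over other genes, and ran from -0.038 to 0.0274 without single samples. The difference in the first-class share reversed from -0.92 to 0.24 percentage points for summed counts, was -0.08 with at least 500 intron counts per sample, and ran from -1.23 to -0.51 without single samples. With the introns scaled by the size factors of the gene counts, an alternative added after seeing the data, the median log2 change of the introns moved from -0.36 to -0.66 in genes with lower gene counts and reversed from 0.15 to -0.14 in genes not called. The causes were not tested, and leaving out a sample raised some of the numbers of calls and lowered others.

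Same-numbered samples did not deviate together (correlation 0.046 over 44784 introns and -0.12 over 12347 genes), so the replicate numbers were not taken to pair the samples. The replicate block gave 11 introns, 1 gene with a changed ratio and 47 genes with changed gene counts, and a block with the numbers crossed, added after seeing the data, gave 45 genes, 42 lower and 3 higher. For the single introns and genes named, 106 of the alternative fits kept the call and 48 kept only the direction. Of 6790 members, 5708 were too shallow for the usage test.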
